A study of Mus musculus with 9 samples.

Results

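Gene expression was compared between untreated cells at day 0 and cells at day 6 after 4-hydroxytamoxifen, with 3 RNA-seq libraries in each group, replicates A, B and C. These 6 of the study's 9 libraries were taken by their labels, and no measured value entered the choice. All came from PT-22, a single mouse kidney line given as proximal tubule, in a derivative that carries Pax8 in the vector pTRIPZ, from which doxycycline induces expression. Every library, the untreated ones included, had the genotype Pax2-/-, Pax8fl/fl, Rosa-CreERT2, that is, Pax2 given as deleted, Pax8 flanked by sites for Cre recombinase and a Cre that 4-hydroxytamoxifen activates, expressed from the Rosa locus. Confluent cells were kept in DMEM with 3% fetal bovine serum and penicillin and streptomycin. The day 6 group received 4-hydroxytamoxifen at 1 uM and no doxycycline, and the labels give the length of that exposure as 2 days in one place and 6 days in another. The other 3 libraries, collected at day 12 after doxycycline, entered the filter on low counts, the scaling and the estimate of the spread between libraries. No vehicle-treated library and no untreated library of day 6 was analysed here, so the drug, the recombination and the time in culture cannot be told apart. Nothing in the labels says that the replicates came from separate cultures, and the p-values then reflect library-to-library spread only, which can be of technical origin.

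PAX8 and PAX2 are paired-box transcription factors that specify the kidney lineage in the embryo and stay active in tubule epithelium of the adult. Proximal tubule cells take up amino acids, sugars, phosphate and filtered protein through an apical brush border, with the receptor megalin (Lrp2) serving the protein. After injury such cells are known to switch on secreted inflammatory and matrix genes and markers such as Havcr1 and Lcn2. The family of NF-kB factors drives chemokines and its own inhibitors, the factor ATF4 drives amino acid supply under stress, and the SREBP factors drive sterol synthesis.

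Levels are given in CPM, counts relative to a TMM-scaled library size, for replicates A, B and C in that order, first at day 0 and then at day 6. A gene is said to have risen or fallen where the adjusted p was under 0.05 in edgeR's quasi-likelihood test with Benjamini-Hochberg adjustment over the 16353 genes that passed a filter on low counts. Log2 fold changes are day 6 against day 0 with their SE. The 6 libraries held 60193639 to 86767334 counts, each count being worth 0.0119 to 0.0172 CPM, and 21213 to 22023 genes had a count. Mitochondrial genes took 6.66% to 7.18% of the counts of a library. Across genes, libraries of one group correlated at r between 0.9936 and 0.9946 and libraries of different groups at 0.9584 to 0.9605. The first principal component held 83.0% of the variance and parted the groups, and on it no library stood apart from its own group. On the second, which held 5.06%, day 6 replicate C lay at -24.6, beside 9.80 and 15.2 for replicates A and B. Day 0 replicate A lay there at 16.7, beside -5.85 and -11.2 for replicates B and C. Of 22 markers of the proximal tubule, 8 passed the filter and 5 had no count in any of the 6 libraries. Few of the genes that define the labelled cell type could therefore be followed. Of these 8, 2 rose and 6 fell (median log2 fold change -0.59), beside 33.5% risen and 31.4% fallen of all genes tested. Because these are bulk samples, fewer cells that express a gene and less of its RNA per cell cannot be told apart.

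The gene targeted for deletion was not lower at day 6. Pax8 (GRCm38 chr2:24420560-24475599, minus strand) rose from 292, 289 and 292 CPM to 399, 405 and 411 CPM (log2 fold change 0.48 ± 0.029, adjusted p = 8.68e-10). All 3 day 6 libraries therefore stood above all day 0 libraries, against the direction that the label of a depleted group would give. Pax2 (chr19:44756045-44837871, plus strand) rose from 30.4, 30.7 and 34.6 CPM to 47.9, 43.4 and 49.6 CPM (log2 fold change 0.56 ± 0.06, adjusted p = 8.64e-07), although the genotype gives it as deleted. The count of a whole gene includes transcripts that lack an exon, and reads of the vector's Pax8 cannot be parted from those of the endogenous gene, so neither value checks recombination. The libraries are called by day and treatment for this reason. Cre transcripts, counted as a separate entry of the deposited table, were present before and after treatment, at 21.4, 20.9 and 18.8 CPM at day 0 and 16.9, 17.8 and 17.6 CPM at day 6.

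Of the 16353 genes tested, 5472 rose (33.5%) and 5133 fell (31.4%), and the median log2 fold change of all of them was 0.02. Most changes were small. Among the called genes, 6498 (61.3%) moved by less than 1.5-fold, and the median fold was 1.44 for those that rose and 1.29 for those that fell. The large changes were mostly increases. At least 2-fold, 1579 genes rose (9.66%) and 761 fell (4.65%). At least 10-fold, the numbers were 287 and 83, and at least 100-fold, 47 and 14. In 5806 genes (35.5%) all 3 day 6 libraries lay above all 3 of day 0, in 5467 (33.4%) they lay below, and in 5080 (31.1%) the groups overlapped. These shares are the background against which every count of a gene list below has to be read. A gene silent at day 0 could pass the filter only through day 6 or day 12, so a list's count describes its tested members and gives no support beyond that.

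**Figure D1:**
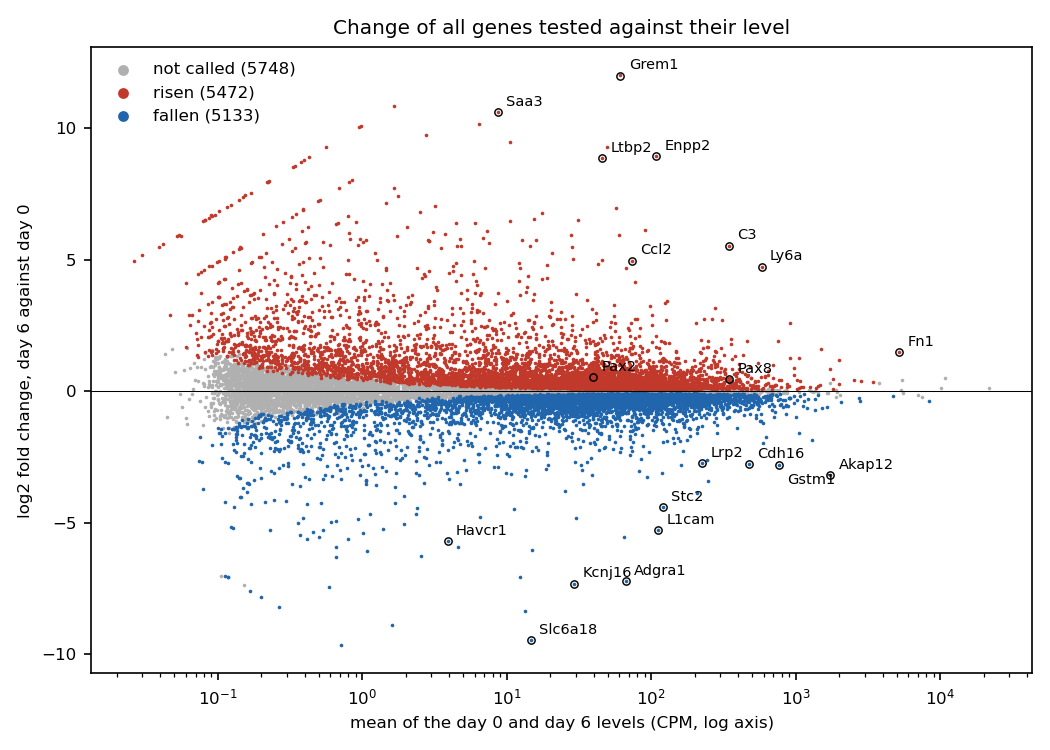
Each point is 1 of the 16353 genes tested, with the mean of its day 0 and day 6 levels (CPM, log axis) across and its log2 fold change up. Red points (5472) rose, blue points (5133) fell and grey points were not called. Among the 20 labelled genes, the largest changes in either direction lie at lower levels than abundant genes such as Akap12.

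The genes that gained or lost the most transcripts included secreted and surface proteins on one side and scaffold, protease and detoxifying genes on the other. Fn1, which encodes the matrix protein fibronectin, rose from 2601, 2764 and 2863 CPM to 7753, 6935 and 8399 CPM (log2 fold change 1.49 ± 0.078). Thbs1, for thrombospondin, rose from 242, 252 and 283 CPM to 1539, 1574 and 1632 CPM (log2 fold change 2.61 ± 0.054). Spp1, for osteopontin, rose from 740.0, 729 and 728 CPM to 2257, 2303 and 2198 CPM (log2 fold change 1.62 ± 0.035). Ly6e, a GPI-anchored surface protein, rose from 1205, 1146 and 1289 CPM to 2782, 2740.0 and 2737 CPM (log2 fold change 1.18 ± 0.041). On the falling side, Akap12, a scaffold for protein kinases A and C, fell from 3111, 3139 and 3127 CPM to 341, 349 and 346 CPM (log2 fold change -3.18 ± 0.034). Adamts1, a secreted protease that cuts proteoglycans, fell from 2060.0, 2022 and 2030.0 CPM to 570.4, 554 and 583 CPM (log2 fold change -1.84 ± 0.039). Gstm1, a glutathione transferase, fell from 1316, 1261 and 1438 CPM to 187, 195 and 195 CPM (log2 fold change -2.80 ± 0.048). Col18a1, a basement membrane collagen, fell from 1591, 1577 and 1572 CPM to 527, 521 and 522 CPM (log2 fold change -1.59 ± 0.03). In each of these genes the 2 groups were far apart compared with the spread within them.

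**Figure D2:**
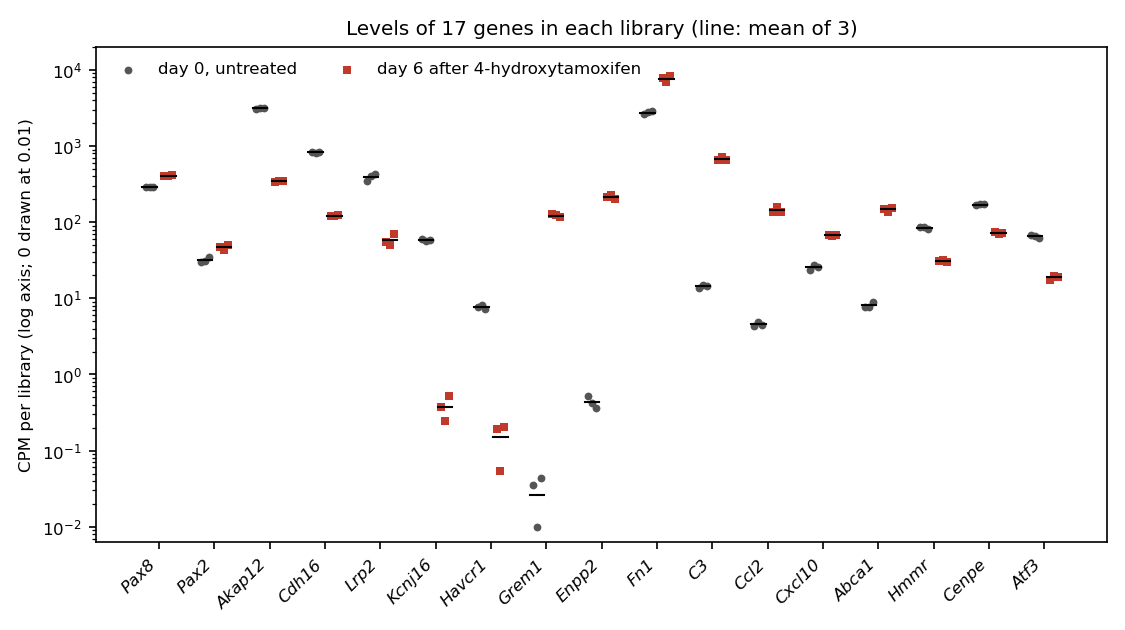
Levels of 17 genes in each library (CPM, log axis, with a value of 0 drawn at 0.01), grey circles for day 0 and red squares for day 6, with a line at each mean. The 3 libraries of a group lie close together in nearly every gene, and the groups part both in strongly changed genes such as Grem1 and in modestly changed ones such as Pax8.

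Several genes of tubule transport fell steeply and others by smaller steps. Slc6a18, which carries neutral amino acids across the brush border, had 29.0, 25.6 and 32.9 CPM at day 0 and 0.0886, 0 and 0.0344 CPM at day 6. Its relative Slc6a19 fell from 13.8, 13.9 and 13.2 CPM to 3.32, 3.01 and 3.51 CPM (log2 fold change -2.06 ± 0.086). Kcnj16, a potassium channel subunit of the basolateral membrane, fell from 59.8, 56.2 and 58.6 CPM to 0.369, 0.243 and 0.516 CPM (log2 fold change -7.31 ± 0.099). Each of the 3 lost most of its transcript in all day 6 libraries. Cftr, a chloride channel, fell from 58.6, 59.8 and 57.2 CPM to 2.01, 2.05 and 2.27 CPM (log2 fold change -4.80 ± 0.057). Slc4a11, a member of the bicarbonate transporter family, fell from 50.7, 49.4 and 54.3 CPM to 8.01, 7.42 and 8.90 CPM (log2 fold change -2.67 ± 0.059). Lrp2, the receptor megalin for filtered protein, fell from 343, 399.5 and 430.4 CPM to 55.2, 50.5 and 70.5 CPM (log2 fold change -2.74 ± 0.13), and its partner Cubn, chosen after its values were seen, fell from 3.06, 2.65 and 2.87 CPM to 1.99, 1.88 and 2.03 CPM (log2 fold change -0.54 ± 0.12). Cobl, an actin nucleator of the brush border, fell from 75.0, 78.1 and 81.3 CPM to 25.5, 22.5 and 24.8 CPM (log2 fold change -1.69 ± 0.045), and Nt5e, an ectonucleotidase, fell from 111, 106 and 107 CPM to 33.5, 33.7 and 32.9 CPM (log2 fold change -1.70 ± 0.036). The adjusted p of these genes, with edgeR, ran from 6.80e-18 to 0.00107.

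The transporter families as wholes did not move one way, however. In the brush border list, 9 rose and 8 fell of 23 tested (median log2 fold change -0.11). Among amino acid and peptide transporters 18 rose and 14 fell of 37 tested (median log2 fold change 0.06), and among ion and phosphate transporters 29 rose and 18 fell of 60 tested (median log2 fold change 0.12). Members that rose include textbook proximal tubule genes, although 6 of the 8 proximal tubule markers tested fell. The 2 markers that rose were Aqp1 and Anpep. Aqp1, the water channel of this segment, rose from 124, 103 and 129 CPM to 333, 312 and 328 CPM (log2 fold change 1.45 ± 0.063). Anpep, an aminopeptidase of the brush border, rose from 9.50, 9.76 and 10.7 CPM to 26.8, 25.0 and 27.2 CPM (log2 fold change 1.40 ± 0.062). Slc4a4, which returns bicarbonate to the blood, rose from 10.8, 11.2 and 12.04 CPM to 32.8, 33.8 and 35.9 CPM (log2 fold change 1.59 ± 0.06). Water channel, peptidase and bicarbonate exit thus stood higher in every day 6 library while megalin and Slc6a18 stood lower. Alpl, alkaline phosphatase, rose from 2.82, 3.42 and 3.30 CPM to 8.89, 8.88 and 9.21 CPM (log2 fold change 1.51 ± 0.076). Slc40a1, the iron exporter ferroportin, rose from 13.4, 14.2 and 12.8 CPM to 94.7, 99.0 and 98.9 CPM (log2 fold change 2.86 ± 0.041). Abcc3, an organic anion pump, rose from 45.1, 44.2 and 46.2 CPM to 124, 122 and 134 CPM (log2 fold change 1.49 ± 0.041). Prom1, a stem cell marker of tubule membranes, had 742, 695 and 804 CPM at day 0 and 705, 669.7 and 699 CPM at day 6 and did not pass the test (log2 fold change -0.11 ± 0.047, adjusted p = 0.0522).

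Apical endocytosis was mixed as well, for 10 of 27 members tested rose and 12 fell, and the median log2 fold change was 0.04. Ap2m1, a subunit of the clathrin adaptor, fell from 794, 759.8 and 766 CPM to 359, 360.3 and 356 CPM (log2 fold change -1.11 ± 0.03). Clcn5, a chloride and proton exchanger of endosomes, fell from 215, 217 and 215 CPM to 128, 124 and 126 CPM (log2 fold change -0.77 ± 0.042). Dab2, an adaptor that binds megalin, rose from 46.0, 46.9 and 50.6 CPM to 93.0, 95.5 and 93.2 CPM (log2 fold change 0.97 ± 0.041), and Ctns, the lysosomal cystine exporter, rose from 30.7, 29.7 and 32.1 CPM to 63.5, 62.7 and 63.8 CPM (log2 fold change 1.04 ± 0.035). The receptor and the coat adaptor thus fell while another adaptor rose. Among tubule enzymes, 5 rose and 9 fell of 18 tested (median log2 fold change -0.24). Ass1, argininosuccinate synthase, rose from 47.7, 48.6 and 45.2 CPM to 136, 149 and 130.2 CPM (log2 fold change 1.55 ± 0.054). Cyp27b1, which activates vitamin D and was chosen after its values were seen, fell from 0.753, 0.719 and 0.591 CPM to 0.0443, 0.0405 and 0.0861 CPM (log2 fold change -3.60 ± 0.32).

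Only 4 genes with a mean of at least 1 CPM at day 0 kept 3 counts or fewer over the day 6 libraries. Gria1, a glutamate receptor subunit, went from 312, 166 and 224 counts to 1, 0 and 0. Keg1, a kidney-expressed glycine acyltransferase relative, went from 145, 70 and 97 counts to 0 in every library. Glyat, which conjugates glycine in mitochondria, went from 101, 74 and 78 counts to 1, 0 and 0. Pga5, a pepsinogen, went from 110, 89 and 82 counts to 2, 1 and 0. Keg1 and Glyat, both of the glycine acyltransferase family, were thus among the few genes all but lost. All 4 were taken by this rule of detection, chosen after the values were seen.

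The transcription factors of the nephron shifted in both directions, with 20 risen and 9 fallen of 35 tested (median log2 fold change 0.40). Irx3 and Irx5, homeobox genes that lie near each other and pattern the nephron, both fell. Irx3 fell from 91.4, 82.0 and 92.8 CPM to 19.7, 18.6 and 20.7 CPM (log2 fold change -2.18 ± 0.054), and Irx5 fell from 30.2, 28.8 and 33.2 CPM to 8.48, 7.85 and 7.38 CPM (log2 fold change -1.96 ± 0.077). Sim2, a basic helix-loop-helix factor, fell from 133, 122 and 140.4 CPM to 42.0, 41.9 and 42.1 CPM (log2 fold change -1.65 ± 0.043). Others rose. Maf, a leucine zipper factor, rose from 21.3, 20.4 and 23.3 CPM to 219, 229 and 229 CPM (log2 fold change 3.38 ± 0.049). Mecom, a zinc finger factor, rose from 2.27, 2.57 and 2.57 CPM to 19.8, 19.7 and 18.99 CPM (log2 fold change 2.99 ± 0.065). Foxq1, a forkhead factor, rose from 0.0956, 0.256 and 0.173 CPM to 8.61, 9.56 and 9.98 CPM (log2 fold change 5.79 ± 0.19). Neither Tcf7l2, at 21, 23.3 and 24.4 CPM at day 0 and 23.4, 21.3 and 22 CPM at day 6, nor Gata3, at 4.87, 5.07 and 5.37 CPM at day 0 and 4.92, 4.95 and 5.08 CPM at day 6, passed the test (adjusted p = 0.586 and 0.739). In Hox genes, which record body position, 12 rose and 9 fell of 26 tested (median log2 fold change 0.11). The fallen ones named by the rule were Hoxb4, Hoxb5 and Hoxb7 (22.2 ± 1.5 to 15.1 ± 2.0, 21.5 ± 0.74 to 14.1 ± 0.93 and 26.7 ± 0.94 to 18.8 ± 0.25 CPM, mean ± SD of 3 libraries), whereas Hoxb13 rose from 14.6, 13.3 and 13.5 CPM to 24.0, 24.4 and 22.9 CPM (log2 fold change 0.78 ± 0.051) and Hoxa10 rose from 24.4, 23.4 and 23.7 CPM to 36.7, 36.0 and 37.2 CPM (log2 fold change 0.62 ± 0.036).

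Among cadherins, which join cells, and their cytoplasmic partners, the catenins, 6 rose and 6 fell of 14 tested (median log2 fold change -0.39). Cdh16, the kidney-specific cadherin, fell from 833, 814 and 845 CPM to 121, 119 and 124 CPM (log2 fold change -2.77 ± 0.032). Cdh6, a cadherin of the developing proximal tubule, fell from 918, 970.3 and 953 CPM to 242, 242 and 242 CPM (log2 fold change -1.97 ± 0.035). Cdh2, N-cadherin, fell from 319.8, 314 and 326 CPM to 129.7, 129.8 and 132 CPM (log2 fold change -1.30 ± 0.032). Ctnnb1, which encodes beta-catenin, rose from 239, 242 and 229.6 CPM to 614, 644 and 609 CPM (log2 fold change 1.40 ± 0.035). Ctnnd1, p120 catenin, rose from 247, 252 and 247 CPM to 398, 401 and 404 CPM (log2 fold change 0.69 ± 0.031). Cdh13, a cadherin with a lipid anchor, rose from 9.03, 8.44 and 9.68 CPM to 29.8, 28.4 and 31.3 CPM (log2 fold change 1.72 ± 0.059). Claudins, the pore proteins of tight junctions, had 1 risen and 4 fallen of 10. Cldn1 fell from 161, 164 and 153 CPM to 32.8, 32.2 and 31.7 CPM (log2 fold change -2.31 ± 0.037), Cldn12 fell from 109.7, 110.1 and 108 CPM to 55.3, 52.3 and 51.1 CPM (log2 fold change -1.04 ± 0.034) and Cldn3 rose from 18.4, 17.9 and 15.9 CPM to 21.5, 23.5 and 20.8 CPM (log2 fold change 0.33 ± 0.06). In the wider list of tight junction, polarity and desmosome genes, 13 rose and 17 fell of 39 tested (median log2 fold change -0.15). Dsp, the desmosome linker desmoplakin, fell from 59.3, 65.2 and 66.2 CPM to 25.9, 24.2 and 27.7 CPM (log2 fold change -1.30 ± 0.068), and Llgl2, a basolateral polarity protein, fell from 47.9, 48.6 and 50.9 CPM to 21.1, 22.8 and 22.6 CPM (log2 fold change -1.15 ± 0.041). The cytoplasmic plaque proteins cingulin (Cgn) and paracingulin (Cgnl1) rose, Cgn from 51.9, 55.9 and 53.4 to 94.7, 94.5 and 94.3 CPM and Cgnl1 from 161, 159 and 161 to 279, 272 and 283 CPM. F11r, the junctional adhesion molecule JAM-A, rose from 98.2, 96.2 and 95.4 CPM to 195, 208 and 206 CPM (log2 fold change 1.07 ± 0.031). Loss was therefore not shared by all junction components. Among keratins 3 rose and 7 fell of 12 tested (median log2 fold change -0.99). Krt80 fell from 67.4, 62.8 and 64.9 CPM to 23.1, 20.4 and 21.8 CPM (log2 fold change -1.58 ± 0.052) and Krt20 fell from 16.3, 15.1 and 15.4 CPM to 5.95, 6.99 and 6.47 CPM (log2 fold change -1.27 ± 0.072).

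Further genes fell steeply. L1cam, a neural adhesion molecule also known from the ureteric epithelium, fell from 210.4, 218 and 222 CPM to 4.86, 5.87 and 5.97 CPM (log2 fold change -5.29 ± 0.057). Adgra1, an adhesion G protein-coupled receptor, fell from 137, 126 and 136 CPM to 0.946, 1.09 and 0.620 CPM (log2 fold change -7.20 ± 0.082). Rasl11b, a small GTPase, fell from 129, 127 and 124 CPM to 2.39, 3.31 and 2.39 CPM (log2 fold change -5.54 ± 0.07). Cpm, a membrane carboxypeptidase, fell from 384, 358 and 424 CPM to 27.6, 25.7 and 26.6 CPM (log2 fold change -3.87 ± 0.066). Each of these 4 genes fell by more than 10-fold. Myo5b, the motor of apical recycling endosomes, fell from 59.4, 60.1 and 67.8 CPM to 5.27, 5.73 and 5.18 CPM (log2 fold change -3.53 ± 0.067). Gcnt1, an enzyme that branches O-glycans, fell from 71.2, 68.7 and 70.3 CPM to 7.73, 8.68 and 6.58 CPM (log2 fold change -3.19 ± 0.072). The gene ccdc198 fell from 452, 444 and 463 CPM to 42.3, 43.5 and 42.7 CPM (log2 fold change -3.40 ± 0.037). The adjusted p ran from 2.78e-18 to 8.05e-15.

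Some genes were close to silent before treatment. Of those with 3 counts or fewer over the day 0 libraries, 15 reached a mean of at least 1 CPM at day 6, and 13 of them carry names other than gene models. Counts summed over the 3 libraries went from 2 to 3493 for Saa3, an acute-phase protein, from 0 to 662 for Chil1, a chitinase-like lectin, and from 0 to 398 for Mmp3, a metalloproteinase. Mmp12, a further metalloproteinase, went from 3 to 315 counts, and the chemokine gene Ccl9 from 1 to 276. Slc7a2, a transporter of arginine and lysine, went from 0 to 380 counts, and Mn1, a transcriptional cofactor, from 1 to 338. Serpina3g and Serpina3h, near-identical members of a protease inhibitor cluster among which reads may be divided uncertainly, went from 3 to 664 and from 1 to 200. The list thus held acute-phase, protease, protease inhibitor and chemokine genes. Grem1, the secreted BMP antagonist gremlin, lay above this limit of 3 counts but was also close to silent before treatment. It had 0.0358, 0 and 0.0433 CPM at day 0 and 128, 123 and 116 CPM at day 6. Enpp2, the enzyme autotaxin, rose from 0.514, 0.415 and 0.360 CPM to 215, 231 and 201 CPM (log2 fold change 8.94 ± 0.083). Ltbp2, a latent TGF-beta binding protein of the matrix, rose from 0.155, 0.160 and 0.274 CPM to 88.7, 91.5 and 94.2 CPM (log2 fold change 8.86 ± 0.104). Ccdc3, a secreted protein, rose from 2.31, 1.61 and 1.601 CPM to 118, 117 and 116 CPM (log2 fold change 5.96 ± 0.074), and Dio3, which inactivates thyroid hormone, rose from 1.76, 1.66 and 1.67 CPM to 54.9, 55.8 and 55.4 CPM (log2 fold change 5.02 ± 0.051).

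**Figure D3:**
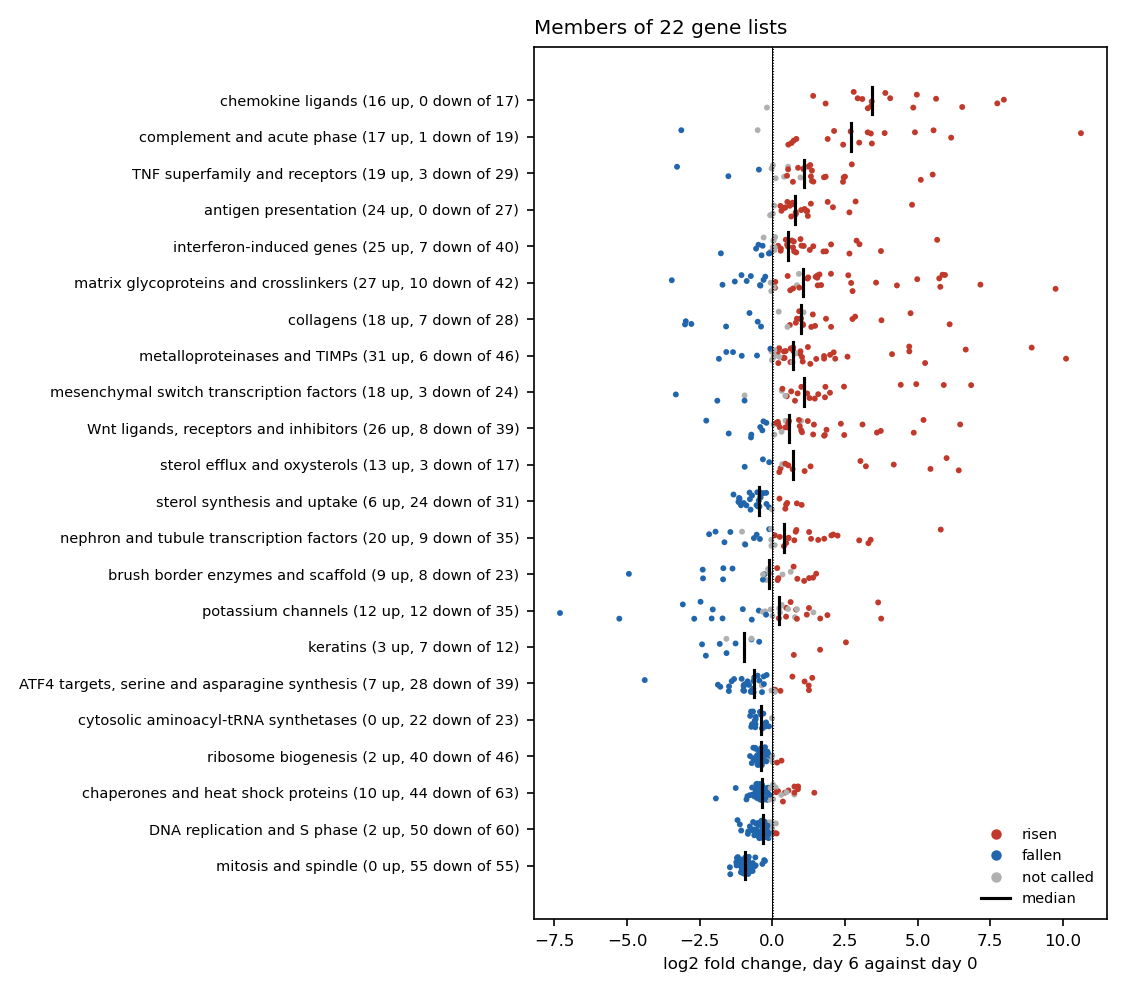
Each dot is a tested member of 1 of 22 gene lists, placed by its log2 fold change and coloured by whether it rose, fell or was not called, with a tick at the median of the list. Chemokines and complement genes lie mostly to the right of 0, the genes of mitosis and the aminoacyl-tRNA synthetases lie to the left, and most transporter and signalling lists spread to both sides.

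Chemokines, which draw leukocytes, rose together. Of 35 listed ligands 17 passed the filter on low counts, and 16 of these rose and 0 fell (median log2 fold change 3.42, beside 0.02 for all genes). Where a mean of at least 1 CPM was required, 9 rose. Ccl2, which attracts monocytes, rose from 4.34, 4.83 and 4.53 CPM to 136, 156 and 135 CPM (log2 fold change 4.97 ± 0.066), and its neighbour in function Ccl7 rose from 0.287, 0.320 and 0.288 CPM to 15.6, 15.6 and 13.2 CPM (log2 fold change 5.63 ± 0.12). Ccl5, an attractant of T cells, rose from 0.800, 0.352 and 0.779 CPM to 60.9, 65.5 and 57.5 CPM (log2 fold change 6.53 ± 0.15). Cxcl10, a ligand of the T cell receptor CXCR3, rose from 23.3, 27.3 and 25.6 CPM to 67.2, 66.5 and 67.6 CPM (log2 fold change 1.40 ± 0.053). The first 3 started near or below a few CPM, whereas Cxcl10 was already well expressed before treatment. Cx3cl1, a membrane-bound chemokine, rose from 9.55, 10.003 and 11.4 CPM to 96.3, 103 and 102 CPM (log2 fold change 3.28 ± 0.054), and Cxcl16 rose from 16.9, 16.9 and 16.1 CPM to 57.8, 61.6 and 58.3 CPM (log2 fold change 1.83 ± 0.038). These 2 and Cxcl10 were chosen after their values were seen. Ccl25 had 3.90, 3.63 and 4.11 CPM at day 0 and 3.62, 3.06 and 3.56 CPM at day 6 and did not pass the test (log2 fold change -0.19 ± 0.0997, adjusted p = 0.114) and was the only tested ligand without a call.

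The promoter of Cxcl10 is shown because it holds the kappaB consensus, the sequence that NF-kB binds, which was searched for on both strands from 250 bases before to 50 bases after RefSeq start sites. In the GRCm38.p6 window chr5:92348840-92349139 (minus strand, 5′ to 3′), capitals mark the 2 matches, the first of them 159 bases before the start:
Cxcl10: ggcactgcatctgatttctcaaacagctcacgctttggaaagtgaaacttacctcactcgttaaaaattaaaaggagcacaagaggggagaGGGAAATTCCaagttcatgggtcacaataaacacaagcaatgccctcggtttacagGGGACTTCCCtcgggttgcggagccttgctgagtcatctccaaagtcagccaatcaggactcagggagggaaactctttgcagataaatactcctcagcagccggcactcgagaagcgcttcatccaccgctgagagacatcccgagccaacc
Of the 11 windows of 10 chemokine genes tested, 6 (54.6%) held a match, and so did 10 of 27 windows (37.0%) of the NF-kB list. In the antigen presentation list 10 of 24 windows did (41.7%), whereas 0 of 12 windows of the complement and acute-phase list and 0 of 18 of the adhesion and Ly6 list did. Among all genes tested 5.35% of windows did, and among all promoters 4.51%. NF-kB is known to drive chemokines and its own inhibitors, so the excess in those lists describes their choice as well as these genes. The windows are those of all tested members, whatever their change. A match describes letters in the window and is not a measured binding site.

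In the list of NF-kB subunits, regulators and feedback inhibitors, 18 rose and 5 fell of 24 tested (median log2 fold change 0.61). Nfkbie, an inhibitor that holds NF-kB in the cytoplasm, rose from 6.76, 6.65 and 6.72 CPM to 48.5, 51.9 and 47.9 CPM (log2 fold change 2.88 ± 0.047). Tnfaip3, a ubiquitin-editing enzyme that ends the signal, rose from 20.3, 21.1 and 20.4 CPM to 123, 126 and 125 CPM (log2 fold change 2.60 ± 0.032). Traf1, an adaptor of TNF receptors, rose from 3.12, 2.65 and 2.54 CPM to 11.3, 12.8 and 12.7 CPM (log2 fold change 2.14 ± 0.083). Nfkbia, the best known inhibitor, rose from 19.8, 18.6 and 18.2 CPM to 64.7, 67.4 and 63.6 CPM (log2 fold change 1.79 ± 0.042). Another inhibitor gene, Nfkbib, fell from 14.1, 12.7 and 14.1 CPM to 11.4, 13.1 and 12.1 CPM (log2 fold change -0.16 ± 0.063), and its groups overlapped. Of the subunits, Relb rose from 30.9, 28.4 and 30.1 CPM to 54.8, 56.4 and 57.3 CPM (log2 fold change 0.91 ± 0.039), Nfkb1 rose from 135, 135 and 139 CPM to 199.6, 197 and 200.2 CPM (log2 fold change 0.54 ± 0.031) and Rela rose from 152, 157 and 157 CPM to 179, 194 and 181 CPM (log2 fold change 0.25 ± 0.035). The kinase gene Chuk fell from 129.9, 128 and 127 CPM to 104, 106 and 103 CPM (log2 fold change -0.30 ± 0.034). Nfkbia, Nfkbib, Relb, Nfkb1 and Rela were chosen after their values were seen.

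Ligands and receptors of the TNF family rose in 19 and fell in 3 of 29. Fas, the death receptor, rose from 0.131, 0.272 and 0.188 CPM to 8.45, 9.47 and 8.45 CPM (log2 fold change 5.52 ± 0.15). Tnfrsf1b, the second TNF receptor, rose from 10.6, 10.96 and 10.9 CPM to 69.3, 73.3 and 73.2 CPM (log2 fold change 2.73 ± 0.042). Tnfsf15, a ligand, rose from 1.62, 2.25 and 2.12 CPM to 11.4, 11.8 and 10.3 CPM (log2 fold change 2.50 ± 0.102). Tnfrsf21, death receptor 6, fell from 40.6, 38.9 and 38.7 CPM to 30.5, 28.2 and 26.9 CPM (log2 fold change -0.46 ± 0.045). The most abundant member, Tnfrsf12a, had 319, 307 and 311 CPM at day 0 and 296, 314 and 308 CPM at day 6 and did not pass the test (log2 fold change -0.03 ± 0.032, adjusted p = 0.446). Among sensors of microbes and of damage, 15 rose and 1 fell of 18 tested (median log2 fold change 0.87). Tlr2, a receptor for bacterial lipoprotein, rose from 30.2, 32.2 and 30.6 CPM to 90.4, 96.8 and 92.3 CPM (log2 fold change 1.59 ± 0.036), and Gsdmd, which forms pores in dying cells, rose from 8.43, 8.53 and 8.35 CPM to 26.1, 28.1 and 26.6 CPM (log2 fold change 1.68 ± 0.047). Tlr4, the receptor for endotoxin, had 41.5, 40.6 and 39.7 CPM at day 0 and 41.2, 45.1 and 40.0 CPM at day 6 and did not pass the test (log2 fold change 0.05 ± 0.043, adjusted p = 0.289). Tlr2 and Tlr4, both expressed before treatment, thus parted.

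Cytokine receptors moved both ways. In the list of cytokine receptors, 10 rose and 6 fell of 22 tested (median log2 fold change 0.19). Il1rl1, the receptor for interleukin 33, fell from 48.2, 45.05 and 48.2 CPM to 3.41, 3.39 and 3.36 CPM (log2 fold change -3.80 ± 0.072). Il1r1, the receptor for interleukin 1, fell from 117, 115 and 124 CPM to 28.8, 26.9 and 26.7 CPM (log2 fold change -2.11 ± 0.044). Csf1r, the receptor for the macrophage growth factor CSF1, fell from 24.9, 24.2 and 27.3 CPM to 7.34, 7.80 and 8.73 CPM (log2 fold change -1.68 ± 0.065). Each of these 3 receptors fell by more than 2-fold. Il6ra, the receptor for interleukin 6, rose from 7.503, 8.15 and 7.33 CPM to 25.8, 26.5 and 25.5 CPM (log2 fold change 1.76 ± 0.051). Osmr, the oncostatin receptor, rose from 3.62, 3.39 and 3.00 CPM to 10.8, 10.6 and 11.02 CPM (log2 fold change 1.69 ± 0.079), and Ifngr2, for interferon gamma, rose from 80.3, 79.4 and 80.0 CPM to 135, 144 and 137 CPM (log2 fold change 0.79 ± 0.03). In the list of interleukins and related ligands, 7 rose and 1 fell of 13 tested (median log2 fold change 0.88). Il33 rose from 2.33, 2.11 and 2.00 CPM to 11.7, 12.8 and 11.1 CPM (log2 fold change 2.46 ± 0.081), and Csf1, chosen after its values were seen, rose from 103, 109 and 109 CPM to 230.2, 245 and 238 CPM (log2 fold change 1.15 ± 0.037). Il1rn, the natural antagonist at the interleukin 1 receptor, rose from 8.55, 9.04 and 7.53 CPM to 37.7, 42.1 and 36.5 CPM (log2 fold change 2.21 ± 0.072). Il33 and Il1rl1, a ligand and its receptor, thus moved in opposite directions in all libraries.

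Complement and acute-phase genes were among the lists farthest from 0. Of 37 listed genes 19 passed the filter, and 17 rose and 1 fell (median log2 fold change 2.69). C3, the central component, rose from 13.8, 15.1 and 14.4 CPM to 646, 718 and 654 CPM (log2 fold change 5.54 ± 0.06). Masp1, a protease of the lectin pathway, rose from 2.39, 2.67 and 2.55 CPM to 174, 188 and 177 CPM (log2 fold change 6.15 ± 0.055). Cp, ceruloplasmin, rose from 311, 328 and 318 CPM to 1181, 1229 and 1164 CPM (log2 fold change 1.90 ± 0.036). Lcn2, an iron-sequestering lipocalin, rose from 0.454, 0.431 and 0.375 CPM to 5.61, 7.12 and 5.70 CPM (log2 fold change 3.86 ± 0.15). C1ra, a protease of the first component that was chosen after its values were seen, rose from 8.89, 9.56 and 9.42 CPM to 69.3, 78.0 and 73.1 CPM (log2 fold change 2.99 ± 0.051). The exception was Itih4, also outside the rule, which fell from 2.15, 2.397 and 2.08 CPM to 0.281, 0.256 and 0.207 CPM (log2 fold change -3.13 ± 0.22). Among serpins, inhibitors of such proteases, 12 rose and 5 fell of 26 tested (median log2 fold change 0.81). Serpina3n rose from 0.275, 0.384 and 0.375 CPM to 7.90, 9.43 and 7.23 CPM (log2 fold change 4.59 ± 0.16), with the caution on its near-identical neighbours. F3, tissue factor, fell from 268, 271 and 269.9 CPM to 99.0, 105 and 100.1 CPM (log2 fold change -1.41 ± 0.041), and Plaur, the urokinase receptor, fell from 57.1, 51.2 and 56.5 CPM to 28.9, 30.4 and 30.0 CPM (log2 fold change -0.88 ± 0.045).

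Antigen presentation rose almost throughout, in 24 of 27 genes with 0 fallen (median log2 fold change 0.79). Cd74, the invariant chain of class II molecules, rose from 1.27, 1.26 and 1.38 CPM to 33.6, 40.4 and 35.4 CPM (log2 fold change 4.80 ± 0.093). H2-T23, a class Ib molecule, rose from 5.15, 5.40 and 6.17 CPM to 24.4, 23.2 and 23.1 CPM (log2 fold change 2.08 ± 0.066). Psmb8, a subunit of the immunoproteasome, rose from 8.05, 7.78 and 8.23 CPM to 17.1, 20.2 and 18.8 CPM (log2 fold change 1.22 ± 0.065). B2m, the light chain shared by class I molecules and chosen after its values were seen, rose from 167, 172 and 175 CPM to 361, 386 and 361 CPM (log2 fold change 1.11 ± 0.034). Erap1, which trims peptides, had 33.3, 33.4 and 34.2 CPM at day 0 and 30.0, 33.4 and 31.9 CPM at day 6 and did not pass the test (log2 fold change -0.08 ± 0.044, adjusted p = 0.125). Interferon-induced genes had 25 risen and 7 fallen of 40. Ifit1 rose from 1.97, 2.41 and 3.605 CPM to 15.4, 17.9 and 16.5 CPM (log2 fold change 2.65 ± 0.15), whereas Ifit3, from the same cluster, fell from 40.7, 35.1 and 44.3 CPM to 11.7, 12.2 and 11.2 CPM (log2 fold change -1.77 ± 0.07). Gbp6 rose from 0.872, 0.975 and 0.923 CPM to 11.1, 12.9 and 12.9 CPM (log2 fold change 3.74 ± 0.102) and Gbp2 rose from 16.1, 16.5 and 19.8 CPM to 68.6, 75.5 and 68.1 CPM (log2 fold change 2.02 ± 0.064), guanylate-binding proteins with close relatives among which reads may be shared. Ifi27 fell from 19.5, 19.5 and 25.0 CPM to 14.8, 15.2 and 13.3 CPM (log2 fold change -0.56 ± 0.083). Irf7, a transcription factor of the interferon response that was chosen after its values were seen, had 3.70, 4.39 and 6.45 CPM at day 0 and 4.11, 4.72 and 5.04 CPM at day 6 and did not pass the test (log2 fold change -0.06 ± 0.17, adjusted p = 0.757). The interferon list was therefore divided between close relatives.

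Immune cell markers were measured beside these lists, as these genes are also expressed by leukocytes. Of 19 markers 5 passed the filter, of which 2 rose (Cd74 and Lyz2), 2 fell (Ptprc and Csf1r) and 1 was not called, and 8 had no count in any of the 6 libraries. Summed over the list, they ranged from 42.2 to 47.7 CPM at day 0 and from 58.0 to 67.1 CPM at day 6, most of which was Cd74, Csf1r and Cd68. Ptprc, the pan-leukocyte antigen CD45 that was chosen after its values were seen, had 2.11, 1.76 and 2.48 CPM at day 0 and 0.0591, 0.0135 and 0.0172 CPM at day 6, and Cd68 had 16.4, 14.6 and 16.1 CPM at day 0 and 14.7, 15.7 and 16.5 CPM at day 6 and did not pass the test (log2 fold change -0.01 ± 0.061, adjusted p = 0.932). The part of leukocytes in the chemokine and complement values was not tested.

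Surface proteins of the Ly6 family, small GPI-anchored proteins encoded in a cluster, rose steeply. Ly6a rose from 41.8, 42.9 and 40.5 CPM to 1112, 1129 and 1123 CPM (log2 fold change 4.75 ± 0.04). Ly6c1 rose from 1.00, 0.719 and 0.923 CPM to 117, 107 and 115 CPM (log2 fold change 6.98 ± 0.079). Ly6d had 0, 0.0479 and 0.0433 CPM at day 0 and 21.7, 20.2 and 21.5 CPM at day 6. Reads may be divided uncertainly between Ly6c1 and its near-identical neighbours. Icam1, which binds leukocyte integrins, rose from 0.107, 0.128 and 0.0865 CPM to 5.54, 5.56 and 5.96 CPM (log2 fold change 5.71 ± 0.16). Vcam1, a like molecule and outside the rule, rose from 10.1, 10.8 and 11.7 CPM to 69.9, 69.9 and 65.5 CPM (log2 fold change 2.66 ± 0.058). Over the list of adhesion and Ly6 proteins, 14 rose and 7 fell of 21 tested (median log2 fold change 0.83). Genes of prostaglandin synthesis were divided, with 7 risen and 7 fallen of 18 tested (median log2 fold change -0.04). Ptgs2, the inducible cyclooxygenase, rose from 5.09, 4.97 and 5.47 CPM to 8.33, 8.24 and 7.47 CPM (log2 fold change 0.63 ± 0.08), and Hpgds, a prostaglandin D synthase, fell from 11.4, 11.1 and 11.03 CPM to 1.71, 1.66 and 1.81 CPM (log2 fold change -2.70 ± 0.094).

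Collagens moved in both directions. In the list 18 rose and 7 fell of 28 tested (median log2 fold change 0.98). The summed level was 2368 to 2390 CPM at day 0 and 1624 to 1686 CPM at day 6. Col18a1, given above, lost more CPM than this sum did, so the sum of the other collagens was higher at day 6. Col4a3 and Col4a4, chains of the mature tubule and glomerular basement membrane, fell, Col4a3 from 32.2, 33.6 and 35.2 to 4.45, 4.74 and 5.51 CPM (log2 fold change -2.79 ± 0.086) and Col4a4 from 55.6, 59.6 and 61.0 to 7.27, 7.45 and 7.61 CPM (log2 fold change -2.98 ± 0.048). Col4a5, with which they assemble, fell from 172, 176 and 166 CPM to 98.0, 99.0 and 101 CPM (log2 fold change -0.79 ± 0.032). The ubiquitous chains Col4a1 and Col4a2 rose, Col4a1 from 5.63, 5.78 and 4.34 to 19.4, 19.1 and 18.1 CPM (log2 fold change 1.84 ± 0.081) and Col4a2 from 6.82, 8.61 and 7.60 to 20.98, 21.7 and 20.7 CPM (log2 fold change 1.47 ± 0.093). In TPM, which are scaled by length, Col4a3 went from 5.43 to 0.823 and Col4a1 from 1.5 to 4.61. The order of Col4a3 and Col4a1 by TPM therefore reversed between the groups. Col4a1, Col4a2 and Col4a5 were chosen after their values were seen. Col8a1, a short-chain collagen, rose from 6.27, 6.10 and 5.77 CPM to 40.1, 42.1 and 40.4 CPM (log2 fold change 2.75 ± 0.054), and Col14a1, a fibril-associated one, rose from 0.335, 0.320 and 0.245 CPM to 7.96, 8.74 and 7.78 CPM (log2 fold change 4.75 ± 0.11). Col1a1, the main collagen of fibroblasts, had 2.94, 3.20 and 3.23 CPM at day 0 and 3.78, 3.56 and 3.53 CPM at day 6 and did not pass the test (log2 fold change 0.22 ± 0.11, adjusted p = 0.0824).

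Other matrix genes rose more often than they fell. Among glycoproteins and crosslinking enzymes, 27 rose and 10 fell of 42 tested (median log2 fold change 1.07). Postn, periostin, rose from 2.74, 2.65 and 2.96 CPM to 95.8, 90.2 and 78.0 CPM (log2 fold change 4.98 ± 0.086). Fmod and Prelp, small leucine-rich proteoglycans encoded near each other, rose, Fmod from 0.956, 0.703 and 0.995 to 54.0, 54.6 and 56.2 CPM (log2 fold change 5.94 ± 0.09) and Prelp from 0.239, 0.128 and 0.317 to 14.1, 13.2 and 13.2 CPM (log2 fold change 5.85 ± 0.13). Tnc, tenascin C, fell from 935, 1001 and 921 CPM to 293, 276 and 300.2 CPM (log2 fold change -1.72 ± 0.047). Loxl2, a crosslinking oxidase, fell from 412, 400.4 and 403 CPM to 168, 159 and 169 CPM (log2 fold change -1.29 ± 0.033), and P4ha1, a collagen hydroxylase, fell from 184, 194 and 187 CPM to 93.6, 89.7 and 86.8 CPM (log2 fold change -1.06 ± 0.04). Hspg2, perlecan, had 620.1, 728 and 744 CPM at day 0 and 661, 577 and 797 CPM at day 6 and did not pass the test (log2 fold change -0.04 ± 0.11, adjusted p = 0.775). Laminins were divided, with 3 risen and 5 fallen of 10 tested (median log2 fold change -0.08). At least 2-fold, 2 rose and 2 fell. Lama1 fell from a mean of 48.4 ± 2.4 to 10.96 ± 0.39 CPM (SD, n = 3, log2 fold change -2.14 ± 0.06), whereas Lama3 rose from 0.549, 0.911 and 1.5 CPM to 7.02, 7.35 and 7.92 CPM (log2 fold change 2.94 ± 0.20). In integrins, the receptors for these proteins, 14 rose and 5 fell of 21 tested (median log2 fold change 0.59). Itga7 rose from 10.7, 12.2 and 11.2 CPM to 47.9, 48.4 and 47.3 CPM (log2 fold change 2.08 ± 0.044), Itgb4 rose from 3.61, 3.74 and 3.43 CPM to 10.8, 10.3 and 10.1 CPM (log2 fold change 1.53 ± 0.065) and Itgb8 fell from 32.9, 31.3 and 34.5 CPM to 24.7, 23.6 and 25.4 CPM (log2 fold change -0.42 ± 0.049). Lama3 and Itgb4, a chain of laminin 332 and a subunit of its receptor, both rose from low levels.

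Among metalloproteinases and their inhibitors, 31 rose and 6 fell of 46 tested (median log2 fold change 0.71). Their summed level was lower, at 4596 to 4672 CPM at day 0 and 3456 to 3462 CPM at day 6. Adamts1, given above, lost more CPM than this sum did, so the sum of the other members was higher at day 6. Mmp10, stromelysin 2, rose from 0.669, 0.463 and 0.389 CPM to 13.7, 15.03 and 11.9 CPM (log2 fold change 4.71 ± 0.14). Adamts9 rose from 2.38, 3.53 and 3.91 CPM to 18.1, 18.9 and 21.2 CPM (log2 fold change 2.58 ± 0.13), whereas Adamts5, a protease of aggrecan that lies beside Adamts1, fell from 426, 436 and 424 CPM to 141, 139.6 and 148 CPM (log2 fold change -1.59 ± 0.037). Mmp15, a membrane-bound protease, fell from 32.3, 32.8 and 34.1 CPM to 12.1, 13.3 and 13.4 CPM (log2 fold change -1.35 ± 0.05). Contractile and actin-binding genes were mostly higher, with 22 risen and 6 fallen of 33 tested (median log2 fold change 0.28). Acta2, smooth muscle actin, rose from 0.872, 0.927 and 0.966 CPM to 23.1, 24.5 and 23.3 CPM (log2 fold change 4.68 ± 0.095). Myl9, a myosin light chain, rose from 3.68, 4.00 and 3.89 CPM to 26.0, 30.3 and 27.3 CPM (log2 fold change 2.86 ± 0.067), and Des, desmin, rose from 1.84, 1.39 and 1.47 CPM to 4.49, 5.80 and 5.37 CPM (log2 fold change 1.72 ± 0.12). Mylk, the kinase that activates myosin, fell from 104, 110.1 and 116 CPM to 45.9, 49.2 and 51.9 CPM (log2 fold change -1.17 ± 0.048). Zyx, a focal adhesion protein, fell from 217, 219 and 218 CPM to 126, 126 and 128 CPM (log2 fold change -0.78 ± 0.027). Actin and light chain thus rose from low levels while an abundant kinase and adhesion gene fell.

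Transcription factors known from the switch between epithelium and mesenchyme included many that rose, with 18 risen and 3 fallen of 24 tested (median log2 fold change 1.10). Snai1 rose from 1.16, 1.09 and 0.894 CPM to 5.97, 5.49 and 5.97 CPM (log2 fold change 2.46 ± 0.11) and Twist2 rose from 19.6, 18.4 and 18.2 CPM to 68.3, 66.3 and 64.7 CPM (log2 fold change 1.82 ± 0.055), both repressors of epithelial genes. Sox9, a factor of regenerating tubule, rose from 10.99, 9.67 and 10.7 CPM to 43.2, 40.4 and 40.5 CPM (log2 fold change 1.98 ± 0.061). On the epithelial side, Ehf fell from 8.12, 8.02 and 8.96 CPM to 2.38, 2.36 and 1.98 CPM (log2 fold change -1.89 ± 0.101) and the splicing regulator Esrp2 fell from 5.27, 5.34 and 5.28 CPM to 2.703, 2.90 and 2.55 CPM (log2 fold change -0.96 ± 0.086). Klf4, which keeps epithelium differentiated, rose from 14.7, 14.1 and 15.1 CPM to 33.2, 33.9 and 33.5 CPM (log2 fold change 1.20 ± 0.042). The members of the list thus included epithelial factors moving either way. Markers of fibroblasts, pericytes and smooth muscle were measured beside these genes. Of 16 markers 9 passed the filter, 7 rose and 1 fell, and 1 had no count in any library. Their sum ranged from 22.4 to 24.8 CPM at day 0 and from 39.2 to 40.9 CPM at day 6. Pdgfrb, a defining receptor of pericytes that was chosen after its values were seen, rose from 0.0478, 0.0799 and 0.101 CPM to 2.201, 2.73 and 2.43 CPM (log2 fold change 5.01 ± 0.27). Dcn, the fibroblast proteoglycan decorin and also outside the rule, fell from 4.93, 4.84 and 4.98 CPM to 0.384, 0.513 and 0.430 CPM (log2 fold change -3.46 ± 0.15). Their part in the matrix and contractile changes was not tested.

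Ligands, receptors and antagonists of several signalling pathways changed at once. In the TGF-beta list 20 rose and 11 fell of 33 tested (median log2 fold change 0.50). Inhbb, a subunit of activin B, rose from 10.6, 11.6 and 10.6 CPM to 60.4, 61.6 and 60.4 CPM (log2 fold change 2.48 ± 0.052), while Fst, follistatin, which binds activin, fell from 16.3, 15.8 and 13.8 CPM to 1.99, 2.12 and 2.24 CPM (log2 fold change -2.86 ± 0.088). Fstl1, a secreted relative of follistatin, rose from 40.9, 41.6 and 39.9 CPM to 170.0, 181 and 171 CPM (log2 fold change 2.09 ± 0.039). An activin subunit and its inhibitor thus parted. Gdf15, a stress-induced ligand, fell from 64.1, 54.0 and 67.9 CPM to 22.4, 23.3 and 20.1 CPM (log2 fold change -1.50 ± 0.072), and Tgfbi, a matrix protein induced by TGF-beta, fell from 20.0, 20.2 and 20.7 CPM to 9.22, 7.25 and 8.12 CPM (log2 fold change -1.31 ± 0.067). In the BMP list, 15 rose and 5 fell of 23 tested (median log2 fold change 0.34). Bmp6 fell from 280.3, 272 and 277 CPM to 155, 152 and 154 CPM (log2 fold change -0.85 ± 0.029) and the BMP-binding protein Twsg1 fell from 832, 823 and 824 CPM to 362, 359 and 353 CPM (log2 fold change -1.21 ± 0.032). Id1 and Id3, textbook targets of BMP signals, rose, Id1 from 24.1, 23.7 and 21.5 to 94.8, 99.8 and 93.3 CPM (log2 fold change 2.05 ± 0.049) and Id3 from 32.2, 31.9 and 27.7 to 121, 126 and 128 CPM (log2 fold change 2.03 ± 0.047). These targets rose alongside the antagonist Grem1.

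Wnt genes were counted as 26 risen and 8 fallen of 39 tested (median log2 fold change 0.57). Lef1, a factor that acts with beta-catenin, rose from 0.705, 0.879 and 0.981 CPM to 10.9, 12.01 and 10.8 CPM (log2 fold change 3.73 ± 0.11). Rnf43, which removes Wnt receptors and is itself induced by Wnt, rose from 1.22, 1.23 and 1.43 CPM to 11.2, 10.7 and 11.4 CPM (log2 fold change 3.10 ± 0.11). Axin2, another inhibitor induced by the pathway and chosen after its values were seen, rose from 2.26, 2.29 and 2.13 CPM to 12.8, 12.6 and 11.7 CPM (log2 fold change 2.47 ± 0.09). These 3 genes and Ctnnb1 all rose. Among ligands, Wnt6 rose from 0.239, 0.208 and 0.433 CPM to 8.73, 8.34 and 8.64 CPM (log2 fold change 4.87 ± 0.15), and Wnt7b fell from 21.3, 21.2 and 21.04 CPM to 7.30, 7.87 and 7.23 CPM (log2 fold change -1.50 ± 0.054). The coreceptor gene Lrp5 fell from 187, 189.7 and 195 CPM to 114, 116 and 116 CPM (log2 fold change -0.72 ± 0.028), whereas Lrp6 had 156, 156 and 158 CPM at day 0 and 166, 159 and 168 CPM at day 6 and did not pass the test (log2 fold change 0.07 ± 0.052, adjusted p = 0.273). In the Notch list, 12 rose and 5 fell of 21 tested (median log2 fold change 0.40). Notch1 rose from 30.8, 30.3 and 34.9 CPM to 113, 105 and 122 CPM (log2 fold change 1.83 ± 0.076). Dlk2, a noncanonical ligand, rose from 1.48, 1.44 and 2.11 CPM to 17.1, 17.8 and 20.2 CPM (log2 fold change 3.45 ± 0.11), whereas the ligand Jag1 fell from 25.7, 27.1 and 29.4 CPM to 19.1, 17.2 and 19.3 CPM (log2 fold change -0.57 ± 0.061) and the target Hes1 fell from 14.8, 14.1 and 13.7 CPM to 10.2, 10.8 and 11.1 CPM (log2 fold change -0.41 ± 0.053). A receptor rose while a ligand and a target fell.

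Growth factor genes showed a like exchange, with 20 risen and 13 fallen of 38 tested (median log2 fold change 0.18). Fgf10 and Fgf7, ligands that mesenchyme normally gives to epithelium, rose, Fgf10 from 0.299, 0.224 and 0.433 to 30.8, 31.7 and 29.4 CPM (log2 fold change 6.57 ± 0.098) and Fgf7 from 4.52, 4.54 and 5.15 to 35.5, 35.7 and 31.4 CPM (log2 fold change 2.85 ± 0.069). Fgf18 fell from 6.57, 6.95 and 7.21 CPM to 0.901, 0.594 and 0.947 CPM (log2 fold change -3.10 ± 0.14). Gfra1, the receptor for GDNF, rose from 24.1, 22.02 and 25.5 CPM to 176, 175 and 181 CPM (log2 fold change 2.89 ± 0.046). The EGF receptor genes fell, Erbb4 from 67.4, 72.0 and 77.2 to 14.2, 15.6 and 16.4 CPM (log2 fold change -2.23 ± 0.071) and Egfr from 132, 139 and 150.5 to 74.8, 77.4 and 79.2 CPM (log2 fold change -0.87 ± 0.057). Among IGF-binding proteins, which hold insulin-like growth factors, Igfbp4 rose from 0.107, 0.176 and 0.144 CPM to 11.3, 12.8 and 11.7 CPM (log2 fold change 6.40 ± 0.13), Igfbp7 rose from 169.7, 153 and 171 CPM to 374, 374 and 375 CPM (log2 fold change 1.19 ± 0.046) and Igfbp5 fell from 115, 109 and 131 CPM to 32.7, 30.6 and 29.4 CPM (log2 fold change -1.93 ± 0.059). For the IGF list 9 rose and 4 fell of 16 tested (median log2 fold change 0.41). Axon guidance genes, used also in branching and vessels, had 30 risen and 14 fallen of 54. Sema3d rose from 1.18, 1.36 and 1.14 CPM to 54.0, 55.4 and 55.7 CPM (log2 fold change 5.49 ± 0.053), Slit2 rose from 5.02, 4.76 and 5.004 CPM to 133, 122 and 129 CPM (log2 fold change 4.70 ± 0.057) and the semaphorin receptor Nrp2 rose from 58.2, 59.5 and 60.9 CPM to 397, 402 and 405 CPM (log2 fold change 2.75 ± 0.047). Sema5a fell from 165, 169 and 177 CPM to 17.6, 17.7 and 18.6 CPM (log2 fold change -3.24 ± 0.049) and Ephb2 fell from 10.3, 10.6 and 11.4 CPM to 1.95, 2.23 and 1.95 CPM (log2 fold change -2.39 ± 0.089). Vegfa, the vessel growth factor, rose from 80.7, 82.5 and 87.4 CPM to 162, 156 and 162 CPM (log2 fold change 0.94 ± 0.039).

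Hormone receptors also changed sides. Over the list of kidney hormone receptors and their modifiers, 15 rose and 11 fell of 27 tested (median log2 fold change 0.36). Avpr1a, a vasopressin receptor, had 2 counts over the day 0 libraries and 2558 over those of day 6. Adora2b, an adenosine receptor, rose from 0.549, 0.639 and 0.519 CPM to 5.08, 5.21 and 4.96 CPM (log2 fold change 3.16 ± 0.12). F2rl1, the receptor for trypsin-like proteases, fell from 111, 108 and 109 CPM to 39.0, 39.5 and 40.1 CPM (log2 fold change -1.47 ± 0.03), and Ramp2, a partner of the calcitonin receptor family, fell from 14.2, 13.04 and 12.7 CPM to 3.99, 5.57 and 4.06 CPM (log2 fold change -1.54 ± 0.102). As 4-hydroxytamoxifen binds the estrogen receptor, its known targets were counted, and 5 rose and 5 fell of 16 tested (median log2 fold change -0.01). Esr1, the receptor itself, fell from 18.1, 17.03 and 17.1 CPM to 14.1, 14.8 and 13.3 CPM (log2 fold change -0.31 ± 0.051). Cyp1b1, which is outside the list of estrogen targets, rose from 17.9, 17.7 and 21.5 CPM to 76.7, 72.5 and 68.1 CPM (log2 fold change 1.93 ± 0.063). It encodes a cytochrome P450 that hydroxylates estradiol and responds to the aryl hydrocarbon receptor. The shares of estrogen targets that moved lay close to each other and to those of all genes. Single targets moved far, with log2 fold changes from -4.94 to 6.40 over the list. Targets of YAP and TAZ, which sense cell density, had 13 risen and 7 fallen of 22.

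Genes of mitosis fell without exception. In the list of mitosis and spindle genes 0 rose and 55 fell of 55 tested (median log2 fold change -0.93), 15 of them at least 2-fold. Hmmr, which organises spindle microtubules, fell from 85.8, 85.8 and 82.2 CPM to 31.3, 31.6 and 30.0 CPM (log2 fold change -1.45 ± 0.049). Mybl2, the factor that drives late cell cycle genes, fell from 36.8, 37.3 and 37.5 CPM to 14.5, 13.5 and 12.4 CPM (log2 fold change -1.46 ± 0.051). Cenpe, the motor that moves chromosomes to the metaphase plate, fell from 168, 172 and 172 CPM to 74.4, 70.3 and 71.7 CPM (log2 fold change -1.24 ± 0.038). Plk1, a mitotic kinase chosen after its values were seen, fell from 53.1, 50.5 and 52.7 CPM to 24.4, 21.96 and 20.6 CPM (log2 fold change -1.22 ± 0.052). Log2 fold changes over the list ran from -1.46 to -0.26. Genes of DNA replication fell less, with 2 risen and 50 fallen of 60 tested (median log2 fold change -0.31). Fancd2, a repair protein, fell from 29.6, 31.1 and 29.9 CPM to 13.5, 13.1 and 12.8 CPM (log2 fold change -1.20 ± 0.048). Rrm2, which makes deoxynucleotides, fell from 82.0, 84.6 and 81.9 CPM to 39.9, 40.3 and 37.8 CPM (log2 fold change -1.07 ± 0.035). Mcm6, part of the replicative helicase, had 476, 470.3 and 462 CPM at day 0 and 454, 463 and 455 CPM at day 6 and did not pass the test (log2 fold change -0.04 ± 0.03, adjusted p = 0.290), and Cdt1, which loads that helicase, rose from 87.1, 86.8 and 85.0 CPM to 91.7, 92.6 and 92.4 CPM (log2 fold change 0.10 ± 0.031). Cdt1 did not pass the test without day 6 replicate B (adjusted p = 0.0749).

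The promoters of Hmmr and Cenpe are shown for the CCAAT box, the site of the factor NF-Y. Both were among the genes of the list that fell most, and a match to the box was required for showing them. In the GRCm38.p6 window of Hmmr, chr11:40733388-40733687 (minus strand), capitals mark 5 boxes, which lie on the opposite strand and so read ATTGG, the first 172 bases before the start. In the window of Cenpe, chr3:135212313-135212612 (plus strand), capitals mark 1 box 12 bases before the start:
Hmmr: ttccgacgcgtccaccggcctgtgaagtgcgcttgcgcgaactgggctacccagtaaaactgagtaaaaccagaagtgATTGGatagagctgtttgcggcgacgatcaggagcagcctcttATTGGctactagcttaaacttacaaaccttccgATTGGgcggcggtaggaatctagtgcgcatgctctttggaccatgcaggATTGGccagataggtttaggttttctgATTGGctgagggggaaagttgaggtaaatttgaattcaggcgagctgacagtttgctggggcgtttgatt
Cenpe: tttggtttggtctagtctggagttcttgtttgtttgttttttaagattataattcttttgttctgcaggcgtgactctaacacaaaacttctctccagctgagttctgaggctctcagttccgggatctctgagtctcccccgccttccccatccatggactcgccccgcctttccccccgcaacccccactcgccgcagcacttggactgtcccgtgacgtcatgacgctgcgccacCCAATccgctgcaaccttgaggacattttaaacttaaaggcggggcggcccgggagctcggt
On either strand CCAAT occurred in 39 of 51 windows of the mitosis list (76.5%), beside 37.8% of the windows of genes tested and 37.4% of all promoters. The cell cycle homology motif, searched as TTTGAA on both strands, occurred in 38 of the 51 (74.5%), beside 12.1% and 17.9%. In the replication list CCAAT occurred in 33 of 56 (58.9%) and the homology motif in 11 (19.6%). CCAAT was also frequent in antigen presentation, a list in which 0 genes fell, at 17 of 24 windows (70.8%). In sterol synthesis and uptake it occurred in 21 of 30 (70.0%). The mitosis list was drawn up from known cell cycle genes, so its shares describe that choice as well as these genes. None of these counts is a measure of binding.

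Regulators of the cell cycle were divided. Among cyclins, CDK inhibitors and the Rb family, 12 rose and 10 fell of 28 tested (median log2 fold change 0.02). Cdkn1a, which encodes the inhibitor p21 and was chosen after its values were seen, had 135, 131 and 131 CPM at day 0 and 133, 137 and 123 CPM at day 6 and did not pass the test (log2 fold change -0.01 ± 0.039, adjusted p = 0.772). Mxd1, an antagonist of MYC, rose from 10.99, 10.1 and 10.1 CPM to 33.5, 34.4 and 31.9 CPM (log2 fold change 1.68 ± 0.052). Ccnd1, the growth-linked cyclin D1, rose from 5.64, 5.27 and 7.95 CPM to 12.6, 12.4 and 12.5 CPM (log2 fold change 0.99 ± 0.11), and Ccnd3 fell from 73.0, 70.5 and 76.0 CPM to 49.8, 49.3 and 47.7 CPM (log2 fold change -0.58 ± 0.034). Among p53 targets 28 rose and 7 fell of 42 tested (median log2 fold change 0.39). Ccng1 rose from 62.6, 64.4 and 57.9 CPM to 169, 178 and 156 CPM (log2 fold change 1.45 ± 0.046), Eda2r, a TNF receptor relative, rose from 3.68, 3.52 and 3.605 CPM to 20.99, 19.6 and 17.6 CPM (log2 fold change 2.43 ± 0.072), and Trp53inp1, an autophagy factor, rose from 52.9, 51.2 and 53.9 CPM to 195, 199.7 and 188 CPM (log2 fold change 1.88 ± 0.036). Plk2 fell from 159, 161 and 170.1 CPM to 84.9, 93.9 and 89.9 CPM (log2 fold change -0.87 ± 0.039) and Sesn1 fell from 65.2, 63.2 and 61.3 CPM to 42.0, 41.7 and 43.0 CPM (log2 fold change -0.58 ± 0.035). The p53 list thus had rising members without its best known target p21. Immediate early factors were split, with 15 risen and 10 fallen of 27 tested (median log2 fold change 0.30). Nr4a1 rose from 8.92, 7.67 and 9.14 CPM to 31.8, 33.0 and 32.3 CPM (log2 fold change 1.91 ± 0.066) and Ier5 rose from 38.4, 37.7 and 36.4 CPM to 88.0, 91.1 and 88.4 CPM (log2 fold change 1.25 ± 0.031), whereas Jund fell from 260.1, 239.6 and 254 CPM to 167, 158 and 174 CPM (log2 fold change -0.60 ± 0.045) and Egr1 had 92.2, 77.7 and 83.9 CPM at day 0 and 76.5, 78.8 and 76.2 CPM at day 6 and did not pass the test (log2 fold change -0.13 ± 0.059, adjusted p = 0.0603).

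Genes of amino acid supply fell as a group. In the ATF4 list, 7 rose and 28 fell of 39 tested (median log2 fold change -0.65). Stc2, a secreted glycoprotein, fell from 229, 234 and 228 CPM to 11.2, 11.2 and 10.5 CPM (log2 fold change -4.39 ± 0.035). Aldh1l2, an enzyme of mitochondrial folate, fell from 196, 200.3 and 206 CPM to 55.0, 57.2 and 51.7 CPM (log2 fold change -1.88 ± 0.04). Atf3, a stress-induced factor, fell from 67.5, 66.3 and 61.9 CPM to 17.5, 19.8 and 19.2 CPM (log2 fold change -1.79 ± 0.055). Slc7a5, a transporter of large neutral amino acids, fell from 116, 119 and 117 CPM to 44.2, 44.7 and 44.1 CPM (log2 fold change -1.40 ± 0.03). Atf4 itself, chosen after its values were seen, fell from 586, 574 and 538 CPM to 357, 381 and 344 CPM (log2 fold change -0.65 ± 0.042). The 7 that rose include Cebpb, an inflammatory leucine zipper factor, which rose from 28.6, 27.0 and 26.7 CPM to 70.0, 70.1 and 73.0 CPM (log2 fold change 1.37 ± 0.044). Nupr1, a stress-induced chromatin protein, rose from 25.4, 23.3 and 24.8 CPM to 60.0, 57.4 and 58.7 CPM (log2 fold change 1.26 ± 0.038). Of the cytosolic aminoacyl-tRNA synthetases, which charge tRNAs, 22 of 23 fell and 0 rose (median log2 fold change -0.40). Gars, the glycine enzyme, fell from 256, 259 and 251 CPM to 153, 157 and 153 CPM (log2 fold change -0.73 ± 0.029), and Farsb, a phenylalanine subunit, fell from 63.0, 63.8 and 61.4 CPM to 38.0, 38.4 and 36.8 CPM (log2 fold change -0.73 ± 0.033). Qars, the glutamine enzyme, had 71.9, 69.7 and 70.8 CPM at day 0 and 70.5, 70.7 and 69.1 CPM at day 6 and did not pass the test (log2 fold change -0.01 ± 0.03, adjusted p = 0.689).

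The Atf3 promoter is shown for its match to the C/EBP-ATF response element that ATF4 binds, searched as TTGCATCA on both strands. In the GRCm38.p6 window chr1:191183284-191183583 (minus strand), capitals mark the match, 110 bases before the start:
Atf3: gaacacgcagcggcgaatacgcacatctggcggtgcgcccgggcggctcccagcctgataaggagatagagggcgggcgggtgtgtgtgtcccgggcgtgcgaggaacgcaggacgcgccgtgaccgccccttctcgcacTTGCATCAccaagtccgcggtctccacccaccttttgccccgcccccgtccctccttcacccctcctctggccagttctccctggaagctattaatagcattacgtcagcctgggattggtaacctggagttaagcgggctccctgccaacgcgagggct
Of the windows of the ATF4 list 9 of 41 held the element (21.95%), as did 4 of 17 windows of synthetase genes (23.5%). It occurred in 0.553% of the windows of genes tested and in 0.895% of all promoters. The list was drawn up from known targets, so the excess describes that choice as well as these genes.

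**Figure D4:**
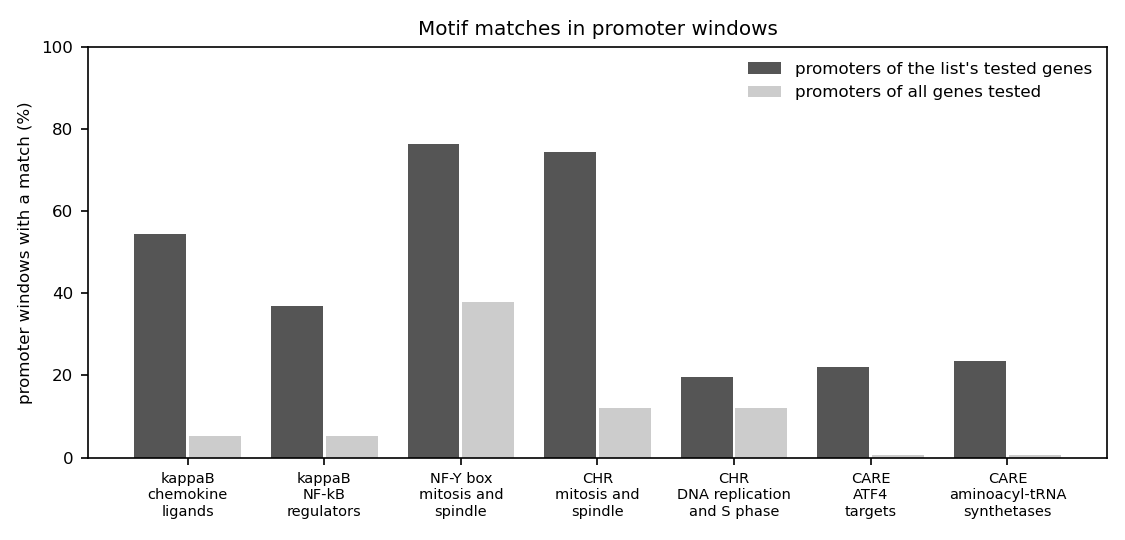
Pairs of bars give the percentage of promoter windows, from 250 bases before to 50 after a start, that hold a motif, for a gene list and for all genes tested. The kappaB consensus reaches 54.6% in chemokines against 5.35%, the NF-Y box 76.5% in mitosis genes against 37.8%, and the ATF4 element 21.95% in its list against 0.553%.

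Genes of the machinery for making and folding protein fell more often than they rose, mostly by small steps. In ribosome biogenesis 2 rose and 40 fell of 46 tested (median log2 fold change -0.38). Noc2l fell from 81.4, 83.4 and 83.0 CPM to 48.8, 47.3 and 49.3 CPM (log2 fold change -0.77 ± 0.03) and Nop56 fell from 272, 278 and 261 CPM to 171, 174 and 168 CPM (log2 fold change -0.66 ± 0.034), both nucleolar proteins. Cytosolic ribosomal proteins stood at 8 risen and 42 fallen of 81 tested (median log2 fold change -0.10). Among all genes tested at a mean of 100 CPM or more, 33.4% rose and 46.6% fell (median log2 fold change -0.06). The share of ribosomal protein genes that fell was not far from that, although fewer rose. The part of level in the counts of these lists was not tested. Chaperones, which fold protein, had 10 risen and 44 fallen of 63. Cryab, a small heat shock protein, fell from 231, 220.2 and 233 CPM to 59.7, 59.1 and 59.0 CPM (log2 fold change -1.95 ± 0.031), and Hspd1, the mitochondrial chaperonin, fell from 587, 605 and 528 CPM to 313, 315 and 299 CPM (log2 fold change -0.89 ± 0.044). Hspa1b, an inducible heat shock protein with a near-identical neighbour, rose from 72.1, 67.6 and 68.5 CPM to 121, 111 and 120.0 CPM (log2 fold change 0.76 ± 0.051). For the proteasome 2 rose and 28 fell of 39 tested (median log2 fold change -0.18). Psmd3 fell from 262, 254 and 263 CPM to 169, 178 and 177 CPM (log2 fold change -0.57 ± 0.031). Psmb5, a constitutive catalytic subunit, fell from 119, 112 and 106 CPM to 78.9, 84.1 and 78.8 CPM (log2 fold change -0.48 ± 0.044), whereas its immune counterpart Psmb8 rose, as given above.

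Mitochondrial genes of the nucleus fell more often than they rose, by small steps. In the respiratory chain 6 rose and 49 fell of 80 tested (median log2 fold change -0.15). Cycs, cytochrome c, fell from 115, 112 and 114 CPM to 65.9, 65.0 and 62.3 CPM (log2 fold change -0.82 ± 0.03). Atp5b, a subunit of ATP synthase, fell from 1376, 1344 and 1298 CPM to 923, 952 and 896 CPM (log2 fold change -0.54 ± 0.035). Mitochondrial ribosomal proteins had 4 risen and 54 fallen of 78 tested (median log2 fold change -0.19). Of the 13 proteins encoded by the mitochondrial genome itself, 3 rose and 1 fell. Among them mt-Co3 rose from 2495, 2315 and 2573 CPM to 3302, 3231 and 3093 CPM (log2 fold change 0.38 ± 0.055) and mt-Nd3 fell from 201, 202 and 206 CPM to 183, 149 and 158 CPM (log2 fold change -0.31 ± 0.062). With nuclear copies of mitochondrial sequence in the genome, such reads may be placed uncertainly. Glycolysis and hypoxia genes rose, with 20 risen and 3 fallen of 36 tested (median log2 fold change 0.20). Egln3, an oxygen sensor, rose from 1.42, 1.47 and 1.70 CPM to 12.1, 13.1 and 11.3 CPM (log2 fold change 2.99 ± 0.093), whereas Gapdh had 1993, 1917 and 1958 CPM at day 0 and 1912, 1982 and 1898 CPM at day 6 and did not pass the test (log2 fold change -0.02 ± 0.034, adjusted p = 0.652). In fatty acid oxidation, 19 rose and 7 fell of 38 tested (median log2 fold change 0.13). Acot1 rose from 31.5, 28.1 and 32.6 CPM to 54.3, 49.7 and 50.01 CPM (log2 fold change 0.74 ± 0.054) and Acaa2 fell from 99.6, 92.2 and 101 CPM to 51.9, 49.2 and 50.6 CPM (log2 fold change -0.95 ± 0.041), a thioesterase and a thiolase.

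Sterol genes moved in opposite directions on the sides of supply and export. For synthesis and uptake 6 rose and 24 fell of 31 tested (median log2 fold change -0.47). Idi1, an isomerase of the pathway, fell from 114, 112 and 107 CPM to 44.4, 44.3 and 43.1 CPM (log2 fold change -1.34 ± 0.043). Fdps, which makes farnesyl pyrophosphate, fell from 389.7, 377 and 356 CPM to 164, 174 and 169 CPM (log2 fold change -1.15 ± 0.037). Both synthesis genes were thus lower in every day 6 library. Insig2, which holds back SREBP, rose from 55.2, 54.9 and 52.5 CPM to 99.9, 97.4 and 94.3 CPM (log2 fold change 0.84 ± 0.037), and Npc2, which moves cholesterol out of lysosomes, rose from 173, 169 and 171 CPM to 341, 359 and 331 CPM (log2 fold change 1.01 ± 0.033). For efflux and oxysterols 13 rose and 3 fell of 17 tested (median log2 fold change 0.69). Abca1, the main cholesterol exporter, rose from 7.78, 7.72 and 8.87 CPM to 149.5, 137 and 154 CPM (log2 fold change 4.18 ± 0.11, adjusted p = 3.26e-14). Ch25h, which makes 25-hydroxycholesterol, rose from 0.0956, 0.0959 and 0.115 CPM to 8.26, 9.89 and 8.37 CPM (log2 fold change 6.41 ± 0.19). Apoe, the apolipoprotein that accepts cholesterol, rose from 1.05, 1.198 and 1.49 CPM to 9.56, 11.5 and 9.16 CPM (log2 fold change 3.03 ± 0.12). Nceh1, which hydrolyses cholesterol esters, fell from 217, 212 and 204 CPM to 169.8, 169 and 166 CPM (log2 fold change -0.33 ± 0.032). The exporter gene thus rose 18.1-fold while no gene of synthesis fell by more than 2.53-fold.

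**Figure D5:**
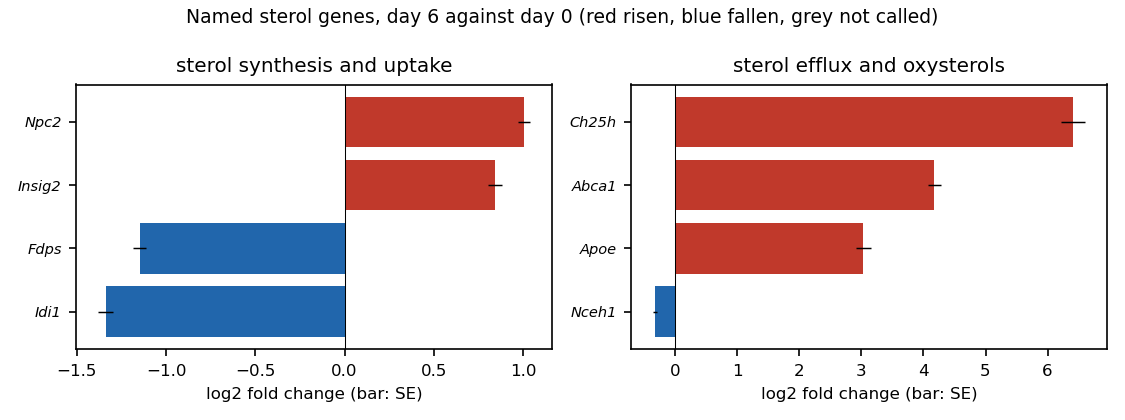
Bars give the log2 fold change of day 6 against day 0 with its SE for the sterol genes named in the text, 4 of synthesis, uptake and its control and 4 of efflux and oxysterols. The bars of Idi1, Fdps and Nceh1 lie left of 0 and the other 5 right of it, up to Ch25h at 6.41.

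Lipid genes outside this pathway were divided. For fatty acid synthesis and storage 12 rose and 9 fell of 28 tested (median log2 fold change 0.04). Elovl6, an elongase, fell from 68.0, 66.4 and 67.1 CPM to 25.1, 21.1 and 21.6 CPM (log2 fold change -1.57 ± 0.061), and Fads2, a desaturase, fell from 382, 367 and 389.8 CPM to 186, 186 and 187 CPM (log2 fold change -1.03 ± 0.031). Fabp3, a fatty acid carrier, rose from 2.94, 2.75 and 3.16 CPM to 14.8, 15.9 and 15.5 CPM (log2 fold change 2.38 ± 0.07), and Acsl3, which activates fatty acids for storage, rose from 36.1, 34.8 and 35.1 CPM to 91.7, 88.7 and 91.9 CPM (log2 fold change 1.36 ± 0.036). Scd2, an abundant desaturase, had 1359, 1323 and 1284 CPM at day 0 and 1305, 1299 and 1347 CPM at day 6 and did not pass the test (log2 fold change -0.01 ± 0.038, adjusted p = 0.911). Lysosomal genes rose more often than they fell, with 37 risen and 7 fallen of 58 tested (median log2 fold change 0.20). Lipa, the acid lipase, rose from 126, 125 and 125 CPM to 192, 199.8 and 195 CPM (log2 fold change 0.64 ± 0.029). Atp6v1c1, a subunit of the proton pump, fell from 523, 506 and 466 CPM to 293, 305 and 295 CPM (log2 fold change -0.74 ± 0.039). Lamp2 had 853, 834 and 851 CPM at day 0 and 876, 896 and 849 CPM at day 6 and did not pass the test (log2 fold change 0.05 ± 0.033, adjusted p = 0.232).

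Detoxifying and metal genes changed in both directions. In the list of glutathione, NRF2 and aldo-keto genes, 24 rose and 28 fell of 61 tested (median log2 fold change -0.06). Gsr, which regenerates glutathione, fell from 236, 228 and 244 CPM to 70.8, 70.3 and 66.4 CPM (log2 fold change -1.77 ± 0.036). Akr1b3, aldose reductase, fell from 258, 226 and 262 CPM to 69.5, 67.7 and 67.2 CPM (log2 fold change -1.87 ± 0.056). Gpx3, the secreted glutathione peroxidase made by the proximal tubule, rose from 79.0, 81.2 and 82.5 CPM to 526, 541 and 547 CPM (log2 fold change 2.73 ± 0.032). Sod3, extracellular superoxide dismutase, rose from 1.01, 0.911 and 1.197 CPM to 41.0, 41.6 and 38.2 CPM (log2 fold change 5.27 ± 0.093). Of the genes named here, the secreted Gpx3 and Sod3 rose and the intracellular Gsr and Akr1b3 fell. The other members of the list were not sorted in this way. For metal transport 11 rose and 9 fell of 26 tested (median log2 fold change 0.02). Slc39a14, a zinc and iron importer, fell from 116, 115 and 117 CPM to 53.3, 52.1 and 54.9 CPM (log2 fold change -1.12 ± 0.029), and Mt2, a metallothionein, fell from 139.6, 129.6 and 144 CPM to 85.9, 89.2 and 84.6 CPM (log2 fold change -0.67 ± 0.042). Fth1, ferritin heavy chain and outside the rule, rose from 613, 594 and 643 CPM to 1484, 1551 and 1443 CPM (log2 fold change 1.28 ± 0.039). The iron exporter Slc40a1, the ferroxidase Cp and ferritin thus all stood higher at day 6, and the importer lower. Cytochrome P450 genes had 14 risen and 5 fallen of 24.

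The markers of tubule injury did not move as a unit, with 15 risen and 10 fallen of 27 tested (median log2 fold change 0.26). Havcr1, kidney injury molecule 1, fell from 7.60, 8.13 and 7.18 CPM to 0.192, 0.0540 and 0.207 CPM (log2 fold change -5.70 ± 0.20). This standard injury marker was nearly lost, in contrast to Lcn2, C3 and Ccl2. Clu, clusterin, outside the rule, rose from 146, 146 and 139 CPM to 566, 575 and 559.8 CPM (log2 fold change 1.98 ± 0.035). Itgb6, a subunit that activates TGF-beta and likewise outside the rule, fell from 0.980, 0.831 and 1.197 CPM to 0.207, 0.135 and 0.0689 CPM (log2 fold change -2.83 ± 0.32). Igfbp7, a marker of arrested tubule cells, is given above among the rising genes. Markers of other nephron segments were few. Of those for the loop and distal tubule 4 of 14 passed the filter, and Trpm6, a magnesium channel, rose from 15.97, 16.99 and 16.8 CPM to 60.7, 62.0 and 66.5 CPM (log2 fold change 1.93 ± 0.046). For the collecting duct 7 of 18 did, among them Scnn1a, a sodium channel subunit, which rose from 3.86, 3.88 and 4.27 CPM to 10.3, 11.2 and 11.2 CPM (log2 fold change 1.45 ± 0.071). Podocyte and parietal markers had 1 risen and 6 fallen of 9, with Ncam1, an adhesion molecule, 20.99, 21.8 and 22.1 CPM at day 0 and 14.9, 15.6 and 15.9 CPM at day 6. Endothelial markers rose in 5 and fell in 1 of 7, with sums of 9.89 to 10.7 CPM at day 0 and 23.5 to 24.4 CPM at day 6. Flt1, a VEGF receptor, rose from 3.19, 2.72 and 3.20 CPM to 14.2, 13.6 and 13.6 CPM (log2 fold change 2.18 ± 0.074) and made up most of that gain, while the defining marker Pecam1 had 0.203, 0.160 and 0.202 CPM at day 0 and 0.222, 0.148 and 0.103 CPM at day 6 and did not pass the test (log2 fold change -0.25 ± 0.42, adjusted p = 0.626).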

How the data were processed

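Polyadenylated RNA of the 6 libraries was extracted with a column kit, per the labels' protocols. The authors deposited unscaled counts of each gene as whole numbers and a table of TPM. Per the submitters' processing notes, the build was GRCm38 and the tools were RSEM 1.3.3, STAR 2.7.8a, FastQC 0.11.8 and cutadapt 2.3. The strand setting, the annotation release and the part each tool played were not given in these notes. Counts made by RSEM would be rounded estimates, in which reads of near-identical genes are divided between them.

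From the counts, 55487 gene rows entered after 4 transgene rows were left out (0.00204% to 0.00235% of a library's counts). Genes were filtered with filterByExpr by group, scaled by TMM and fitted in edgeR 4.0.16 (R 4.3.3, quasi-likelihood, all 9 libraries, 6 residual degrees of freedom), with Benjamini-Hochberg adjustment over 16353 genes. The SE is that implied by the F statistic and can be too small where a group has few counts. TPM served for levels between genes and for alternatives in limma 3.58.1, and DESeq2 1.42.0 was a further alternative. The script was tested on simulated data. Gene positions came from GENCODE M21, in which 55141 identifiers were found. Promoters are RefSeq windows on GRCm38.p6, 32851 windows of 27025 genes, which include 11087 genes tested.

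The members and the 75 gene lists were chosen with earlier results of these data known, and 3 symbol patterns of the lists were narrowed after the files were seen. The rule for naming genes took Pax8 and Pax2, then the 12 largest folds each way (mean of 50 CPM or more where higher, groups not overlapping, no gene models), the 6 largest CPM differences each way, the 10 highest in TPM, and for each list up to 3 called members in each direction (mean of 5 CPM or more in the higher group) with the most abundant one not called. Genes named outside this rule were picked with their values in view. Of the 457 genes the rule gave, 39 overlap exons of a same-strand neighbour, including L1cam, Ctnnb1, Ctnnd1, Cd74, Spp1, Fdps, Loxl2, Psmb5, Ramp2, Gbp6, Acsl3, Nop56 and mt-Co3. Exons of an opposite-strand neighbour are overlapped by 115, including Pax8, Fn1, Thbs1, Enpp2, Ltbp2, Tnc, Cftr, Maf, Notch1, Fgf10, Gfra1, Ch25h and Icam1. The values of such genes may hold reads of the partner. The results of some genes are not reported here.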

Additional observations from a re-analysis of the deposited data

Results flagged for a closer look

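An entry for the reporter tdTomato, which the labels do not mention, carried counts in all 6 libraries and lay outside the tests. It stood at 2.96, 2.22 and 2.84 CPM at day 0 (2.68 ± 0.398, SD, n = 3) and at 4.03, 4.03 and 4.54 CPM at day 6 (4.204 ± 0.295, SD, n = 3), so the treated libraries lay above the untreated ones. The difference was not tested. The entries for eGFP and mCherry were at 0 in every library.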

How the results depend on the processing

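No gene that the rule named and the test called changed sign under an alternative that gave it a value (447 to 457 of the 457 named genes each; the test against 2-fold gave counts only). Genes without a call did change sign in places, Abcc1 on log2(TPM + 1) among them. The counts of 5472 genes risen and 5133 fallen ranged over 5115 to 5287 and 4853 to 5129 when each library was left out in turn, and the counts of at least 2-fold over 1573 to 1649 and 766 to 807. Pax8 then ranged over 0.46 to 0.49 and Pax2 over 0.52 to 0.62 on the log2 scale. Other scalings, filters and tools moved the counts of called genes by less than 1.5-fold: 5127 and 5158 with DESeq2, 5312 and 5307 with RLE factors, 5616 and 5367 with no filter, 5245 and 5311 with the 6 libraries alone, and 5179 and 4059 on log2(TPM + 1). The counts of at least 2-fold (1579 and 761) moved more. They were 932 risen and 447 fallen with a mean of 1 CPM or more, 1049 and 490 with a test against 2-fold (glmTreat), and 654 and 326 on log2(TPM + 1). The filter and the pseudocount remove or shrink genes of low level by construction. The median log2 fold change of all genes lay between 0.004 and 0.054 over the alternatives. With the replicate block 5405 genes rose and 5080 fell, 1569 and 758 by at least 2-fold, and Pax8 stood at 0.48. Same-letter libraries correlated at 0.024, -0.011 and 0.078 in their deviations, and different-letter libraries at -0.110 to 0.095. No effect shared by a letter was therefore seen, but these values cannot settle whether the letters pair the samples. Of 457 named genes, 11 lost their call on log2(TPM + 1), 4 with DESeq2, 3 to 7 when a library was left out and 0 with the replicate block. Fold changes of single genes that rest on fewer than 10 counts in a group are not given in the text, and the depth limits these genes.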

Other observations

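Large changes were found in genes that lie next to each other, a pattern noticed in these data and given here as a description. Runs were taken where at least 4 consecutive tested genes all moved at least 2-fold in one direction (GRCm38 positions). The longest run was the Ly6 region, chr15:74724318-75222661, where 14 tested genes rose. In the Serpina3 region, chr12:103994743-104414329, 9 genes rose, and in the region of the Ifi200 family, chr1:173723427-174031810, 6 did. Around the metalloproteinases Mmp13, Mmp12, Mmp3 and Mmp10, chr9:7272514-7510240, 4 genes rose, and around C1ra and C1s1, chr6:124430759-124636085, 5 did. At chr1:133897199-134048277, Optc, Prelp, Gm1627 and Fmod rose. Fold changes are left out for these 6 runs, since each holds at least 1 gene with fewer than 10 counts over the day 0 libraries. Members of such families can be near copies, so reads of one may be counted for another. At chr19:34241090-34481546, Acta2, Fas, Ch25h and the gene model Gm26902 all rose, by 4.11 to 6.41 on the log2 scale. The longest falling runs held 5 genes. At chr8:91798525-92376286, 5 genes from Irx3 to Irx5, the noncoding genes Irx3os and Crnde among them, fell (median log2 fold change -1.80). At chr16:85793827-86878648, Adamts1, Adamts5 and the gene models Gm32461 and Gm32624 fell (median -1.75). How often such runs arise without treatment was not tested.

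Kinds of genes moved in unlike shares. Of 13274 protein-coding genes tested, 37.0% rose and 36.2% fell. Of 504 antisense genes, 25.6% rose and 8.14% fell, of 388 lincRNAs 32.2% and 13.1%, and of 98 lncRNAs at bidirectional promoters 35.7% and 7.14%. Processed pseudogenes went the other way, with 4.46% of 1053 risen and 11.02% fallen. Level went with direction as well. Among 3881 genes with a mean under 1 CPM, 22.7% rose and 10.5% fell, and among 2524 genes at 100 CPM or more, 33.4% rose and 46.6% fell. The part of strand and of the filter in these shares was not tested.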
